A study of Homo sapiens with 4 samples.

Results

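P-TEFb, the kinase complex that releases paused RNA polymerase II into elongation, was followed at the mRNA level through 9 genes: its kinase CDK9, the cyclins CCNT1 and CCNT2, the inhibitors HEXIM1 and HEXIM2, the 7SK RNA-binding proteins LARP7 and MEPCE, the bromodomain gene BRD2, and the cyclin gene CCNL1. They were taken by symbol from the authors' deposited table, which listed all 9 among 16376 genes. HEXIM1 and HEXIM2 lie near each other on chromosome 17; CDK9 is on chromosome 9, CCNT1 on 12, CCNT2 on 2, LARP7 on 4, MEPCE on 7, BRD2 on 6 and CCNL1 on 3 (GENCODE release 29, GRCh38). The samples were HCT116, a human colon cancer cell line, exposed to hydrogen peroxide (H2O2, 2 samples) or left untreated (Control, 2 samples). Neither dose nor exposure time is given in the sources used here. Whether the samples of each group are separate cultures is not given either, so the p-values cover the variation among these 4 samples, which may be technical. The question was whether the mRNAs of this complex and its partners differed between H2O2-treated and Control cells.

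In cells much P-TEFb is held inactive in the 7SK snRNP, in which 7SK RNA, capped by MEPCE and stabilized by LARP7, lets HEXIM1 or HEXIM2 block the kinase. Stress signals can free P-TEFb from this particle, and free P-TEFb phosphorylates the polymerase tail and the pausing factors NELF and DSIF. HEXIM1 is itself known to be transcribed more when P-TEFb is released, as a negative feedback. Poly(A)-selected RNA-seq measures the mRNAs of these proteins, not kinase activity or binding to 7SK, and in bulk samples fewer cells of a type cannot be told apart from less RNA per cell.

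None of the 9 genes was past an adjusted p of 0.05 in the authors' deposited table, where 7.19% of all listed genes were, and limma called none of them, against 4.10% of all genes. At an unadjusted p under 0.05 there was 1 of the 9 in the authors' deposited table (19.6% of all genes) and 2 of the 9 in limma (20.2% of all genes). The 2 H2O2 libraries lay above both Control libraries for HEXIM1, LARP7 and BRD2 and below both for CDK9 and MEPCE, while CCNT1, CCNT2, HEXIM2 and CCNL1 overlapped. Among all genes 26.3% lay higher and 25.6% lower without overlap, so 3 and 2 of 9 are shares near the background. Log2 fold changes of the 9 in the authors' deposited table ran between -0.24 and 0.30, with a median of -0.08 beside 0.00028 for all genes.

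Promoter windows of the 9 genes were searched for 5 motifs, on both strands, in RefSeq sequences of build GRCh38.p14 that run from 250 bases before to 50 after a start site. All 9 genes were found by symbol among these sequences, with 17 windows. A motif match describes the letters and is not a bound site, and no factor was measured in these cells. TATAAA, the letters of a TATA box, was found in the HEXIM1 window alone, first base 29 bases before the start, and in 11.5% of all 35116 windows. TGACGTCA, the cyclic AMP response element, was found 86 bases before the start of CCNL1 and in 1 of 2 windows of LARP7, 243 bases before the start, against 1.85% of all windows. TGACTCA (the AP-1 site, 4.95% of all windows), GAANNTTC (the heat shock element core, 6.77%) and the CArG box of the serum response element (1.29%) were in none of the 17 windows. The 3 windows with a match are shown as a description of their letters, with the motif in capitals:
HEXIM1 promoter, GRCh38.p14 chr17:45148225-45148524, plus strand: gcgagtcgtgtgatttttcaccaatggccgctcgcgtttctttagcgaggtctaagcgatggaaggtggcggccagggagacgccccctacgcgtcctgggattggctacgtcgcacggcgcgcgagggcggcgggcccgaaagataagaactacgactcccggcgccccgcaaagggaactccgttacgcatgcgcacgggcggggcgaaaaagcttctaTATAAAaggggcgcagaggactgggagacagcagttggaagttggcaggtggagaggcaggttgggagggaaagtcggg
CCNL1 promoter, GRCh38.p14 chr3:157160098-157160397, minus strand: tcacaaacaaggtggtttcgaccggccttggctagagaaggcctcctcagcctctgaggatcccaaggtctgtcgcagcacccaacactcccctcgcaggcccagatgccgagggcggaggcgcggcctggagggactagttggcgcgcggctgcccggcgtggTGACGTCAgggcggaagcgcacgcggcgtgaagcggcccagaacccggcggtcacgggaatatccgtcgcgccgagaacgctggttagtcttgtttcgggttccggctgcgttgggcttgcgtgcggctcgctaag
LARP7 promoter, GRCh38.p14 chr4:112636893-112637192, plus strand: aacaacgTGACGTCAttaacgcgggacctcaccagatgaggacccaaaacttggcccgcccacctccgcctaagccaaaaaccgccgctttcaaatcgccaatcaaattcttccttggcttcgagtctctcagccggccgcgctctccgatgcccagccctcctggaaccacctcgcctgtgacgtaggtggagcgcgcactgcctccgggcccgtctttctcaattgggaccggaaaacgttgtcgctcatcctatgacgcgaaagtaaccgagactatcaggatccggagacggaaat
The log2 fold changes of these 3 genes in the authors' deposited table were 0.30, -0.08 and 0.14, and none was called.

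The values per library come from whole read counts solved from the deposited group means (7365032 and 6858809 reads over listed genes for H2O2, 7309731 and 6892854 for Control). The table ties no library to a replicate number, so the libraries are called the deeper and the shallower of their group, in that order below. Which group was H2O2 was read from the order of names in the table's title, so each direction rests on that order. All 6 epithelial markers were listed (EPCAM, KRT8, KRT18, KRT19, CDH1 and CLDN4), the type a colon carcinoma line belongs to, with summed normalized counts of 12570 and 12043 in H2O2 and 9526 and 11230 in Control. Listed were 1 of 5 leukocyte markers (CD14), 2 of 5 fibroblast markers (COL1A1 and COL3A1) and 1 of 4 endothelial markers (KDR); PTPRC, DCN and PECAM1, which define these types, were not listed. There were summed normalized counts of 18.3 and 10.4 for the leukocyte list in H2O2 against 4.79 and 3.08 in Control. The fibroblast list summed to 797 and 736 in H2O2 and 992 and 915 in Control, and the endothelial list to 13.5 and 8.32 in H2O2 and 6.71 and 6.16 in Control. In the authors' deposited table CLDN4 and CD14 were past the threshold as higher and COL1A1 as lower, and the part of these markers in the results below was not tested.

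**Figure D1:**
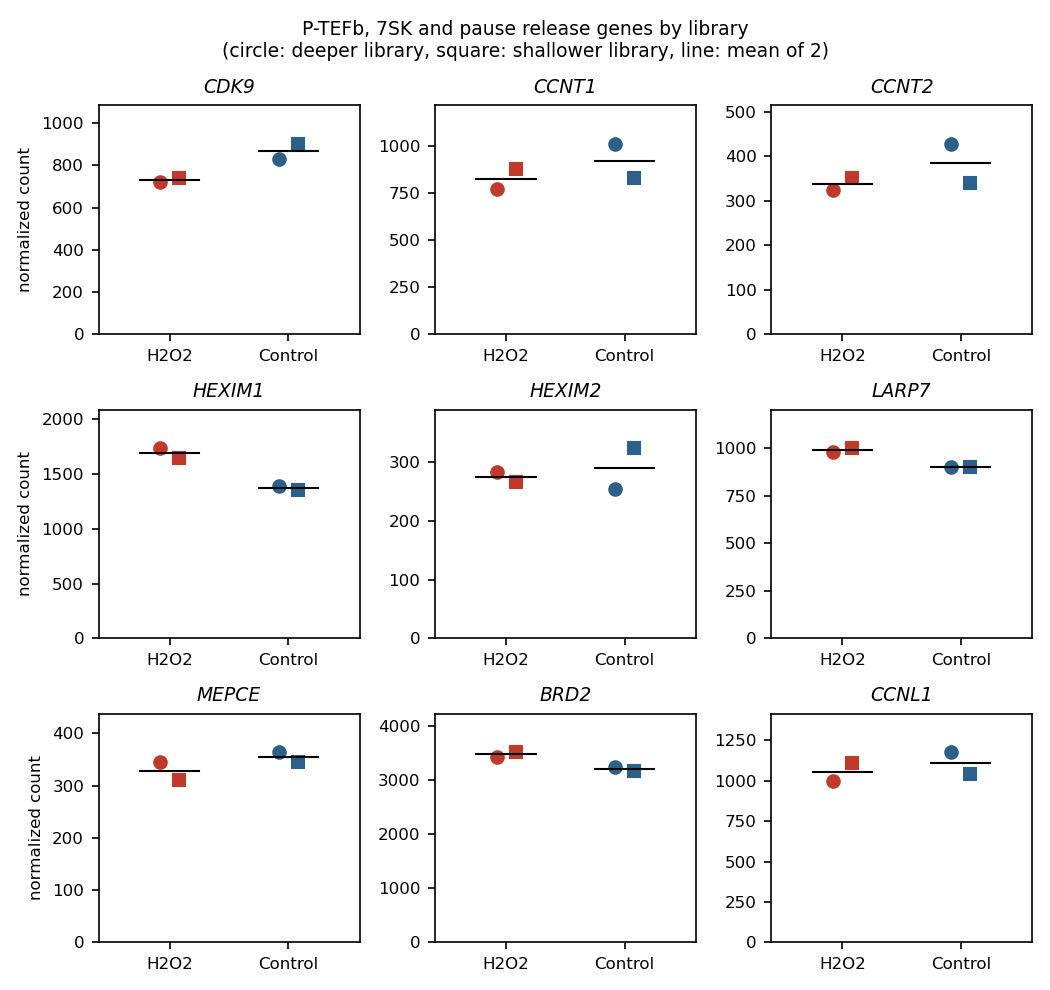
Normalized count (vertical axes, each from 0) of the 9 genes in each H2O2 library (red) and Control library (blue), with circles for the deeper and squares for the shallower library and lines for the mean of 2. HEXIM1 lies at 1740 and 1647 in H2O2, above 1392 and 1355 in Control, while CCNT1, CCNT2, HEXIM2 and CCNL1 overlap between groups.

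CDK9, the kinase subunit, had normalized counts of 724 and 742 in H2O2 libraries, against 833 and 903 in Control libraries. Both treated libraries were thus below both untreated ones, and the means were 733 ± 12.5 in H2O2 and 868 ± 49.8 in Control (SD, n = 2 each). The log2 fold change in limma was -0.24 ± 0.11 (SE, 2 libraries per group) with a 95% interval of -0.48 to -0.01 and an adjusted p of 0.231. The authors' deposited table gave a ratio of 0.844 and an adjusted p of 0.301. With a library left out its log2 fold change in limma ran from -0.30, without the deeper Control library, to -0.18, without the shallower Control library.

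The cyclin T subunits hold CDK9 in its active form and bring it to the polymerase. CCNT1 had normalized counts of 770 and 875 in H2O2 and 1010 and 826 in Control. CCNT2 had 323 and 351 in H2O2 and 428 and 341 in Control. In both genes the H2O2 libraries overlapped with the shallower Control library, and the deeper Control library stood above the other 3. The Control libraries differed from each other by -0.29 for CCNT1 and -0.33 for CCNT2 (log2, shallower minus deeper), which is more than the fold change between groups in limma, -0.15 ± 0.12 for CCNT1 and -0.18 ± 0.14 for CCNT2 (SE, adjusted p = 0.505 and 0.476). Without the shallower Control library limma gave -0.30 for CCNT1 and -0.35 for CCNT2, and without the deeper Control library -0.01 and -0.02. Without the deeper H2O2 library it gave -0.06 and -0.12, and without the shallower H2O2 library -0.25 and -0.24. The size of the difference thus depended on which library was left out.

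HEXIM1, the main inhibitor subunit, came nearest to the threshold of the 9. It had 1740 and 1647 normalized counts in H2O2 libraries, from 1803 and 1583 reads, against 1392 and 1355 in Control libraries, from 1452 and 1320 reads. The groups did not overlap, and the mean was 1694 ± 66.4 in H2O2 and 1373 ± 26.0 in Control (SD, n = 2 each). The authors' deposited table gave a ratio of 1.23 and an adjusted p of 0.141, where its p was number 2077 of 16376 counted from the smallest. limma gave a log2 fold change of 0.30 ± 0.11 (SE) with a 95% interval of 0.08 to 0.53, which is 1.06-fold to 1.44-fold, and an adjusted p of 0.122. With a library left out its log2 fold change in limma ran from 0.26, without the deeper H2O2 library, to 0.34, without the shallower H2O2 library. HEXIM1 itself differed by -0.08 between the H2O2 libraries and by -0.04 between the Control libraries (log2, shallower minus deeper). Over 12118 genes of mean at least 50 the order was the other way. There the median absolute log2 difference was 0.11 between H2O2 libraries and 0.17 between Control libraries.

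HEXIM2, the second inhibitor, had 284 and 266 normalized counts in H2O2 and 254 and 324 in Control. Both H2O2 values lay between the Control values. Its log2 fold change in limma was -0.06 ± 0.15 (SE, adjusted p = 0.843), with a 95% interval of 0.773-fold to 1.19-fold. It was 0.11 without the shallower Control library, -0.24 without the deeper one, -0.02 without the shallower H2O2 library and -0.03 with quantile normalization. In GENCODE release 29 antisense transcripts overlap 50.3% of the exonic length of HEXIM2 and 14.4% of that of HEXIM1. The library kit does not mark strand, so reads of a gene and of its antisense partner cannot be told apart and both values are uncertain to that extent. For LARP7, BRD2 and MEPCE, described next, the opposite-strand gene with the largest overlap covers 7.40%, 7.86% and 5.94% of the exonic length. On the opposite strand ZGRF1 also overlaps 0.784% of LARP7 and HLA-DMA 0.750% of BRD2.

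LARP7, which binds the end of 7SK RNA and keeps it from decay, had 977 and 1002 normalized counts in H2O2 against 899 and 902 in Control. The libraries of each group agreed closely and the groups did not overlap. The log2 fold change in limma was 0.14 ± 0.11 (SE, adjusted p = 0.495), with an interval of 0.939-fold to 1.28-fold. MEPCE, the methyltransferase that caps 7SK, had 345 and 311 normalized counts in H2O2 and 365 and 345 in Control. Its highest H2O2 value and its lowest Control value, 344.6 and 344.9, almost met. In limma its log2 fold change was -0.12 ± 0.13 (SE, adjusted p = 0.645). It was -0.19 and -0.04 without the deeper and the shallower H2O2 library, and -0.07 without the deeper Control library. RN7SK, the RNA of the particle, lacks a poly(A) tail and was not listed, and is not analysed here.

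BRD2, a BET bromodomain protein that binds acetylated histones, had 3431 and 3524 normalized counts in H2O2 and 3244 and 3174 in Control. It was higher in both H2O2 libraries, by a log2 fold change of 0.12 ± 0.11 in limma (SE, adjusted p = 0.572), with an interval of 0.926-fold to 1.27-fold. With quantile normalization it was 0.03 (adjusted p = 0.884). CCNL1, cyclin L1, is a partner of CDK11 kinases in transcription and splicing. It had 1000 and 1107 normalized counts in H2O2 and 1180 and 1040 in Control, and the groups overlapped. limma gave -0.07 ± 0.11 for CCNL1 (SE, adjusted p = 0.751), and values of -0.17 to 0.02 with a library left out, the highest without the deeper Control library and the lowest without the shallower one. For scale, among genes of mean at least 300 the smallest change called in the authors' deposited table was 0.37 in absolute log2 fold change, above those of the 9 genes. HEXIM2, with means of 275 in H2O2 and 289 in Control, is below that mean, so this scale does not cover it. A p that misses the threshold does not show that a gene did not differ: the limma intervals allowed 0.748-fold to 1.08-fold for CCNT1, 0.719-fold to 1.08-fold for CCNT2, 0.765-fold to 1.113-fold for MEPCE and 0.803-fold to 1.12-fold for CCNL1.

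**Figure D2:**
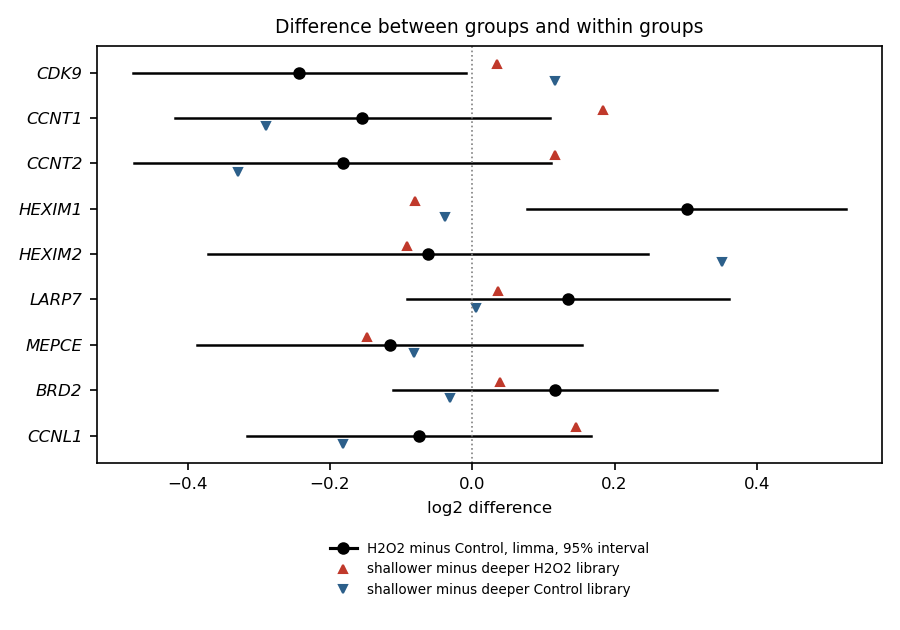
Log2 difference (horizontal axis) of each gene between H2O2 and Control in limma (black, bar for the 95% interval), beside the difference between the libraries of 1 group (shallower minus deeper) for H2O2 (red) and Control (blue). For CCNT1, CCNT2, HEXIM2 and CCNL1 the Control libraries differ by more than the groups do. The H2O2 libraries do so for CCNT1, HEXIM2, MEPCE and CCNL1.

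Per kilobase of exon, over all annotated exons of a gene (GENCODE release 29), BRD2 and HEXIM1 were the most abundant of the 9 mRNAs. BRD2 averaged 474 ± 9.002 and HEXIM1 470 ± 18.4 normalized counts per kilobase in H2O2, and 437 ± 6.72 and 381 ± 7.23 in Control (SD, n = 2 each). Libraries of these neighbours overlapped in H2O2 and were apart in Control. CDK9 followed with 244 ± 4.16 in H2O2 and 289 ± 16.6 in Control, and LARP7 with 242 ± 4.29 in H2O2 and 221 ± 0.554 in Control. Levels of CDK9 and LARP7 overlapped in H2O2 alone. HEXIM2 (135 ± 6.08 in H2O2, 142 ± 24.4 in Control), CCNL1 (121 ± 8.64 in H2O2, 127 ± 11.3 in Control) and CCNT1 (111 ± 10.01 in H2O2, 124 ± 17.6 in Control) formed a middle group, in which CCNL1 and CCNT1 overlapped in both conditions and HEXIM2 and CCNL1 in Control. MEPCE stood at 95.9 ± 6.95 in H2O2 and 104 ± 4.196 in Control. CCNT2 was the lowest, at 37.1 ± 2.11 in H2O2 and 42.4 ± 6.83 in Control. The order was the same in both conditions with this length. With the longest transcript as the length BRD2 stayed highest and CCNT2 lowest. LARP7 then stood above HEXIM1 in Control, at 386 against 381. The place next to BRD2 and parts of the order below it thus depended on the length used.

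Ratios between paired genes cancel depth, and 5 pairs were compared, of which 4 are given. HEXIM1 over CDK9, inhibitor over kinase, had log2 ratios of 1.26 and 1.15 in H2O2 and 0.74 and 0.58 in Control, a difference of 0.54. CCNL1 over its paralog CCNL2 had -0.68 and -0.75 in H2O2 and -1.17 and -1.39 in Control, a difference of 0.56. These pairs did not overlap between groups, and HEXIM1 over HEXIM2 (2.61 and 2.62 in H2O2, 2.45 and 2.06 in Control) did not either, with a difference of 0.36. For HEXIM1 over CDK9 this was fixed by the genes: HEXIM1 lay higher and CDK9 lower in both H2O2 libraries. They had the highest and lowest log2 fold changes of the 9 in the authors' deposited table, 0.30 and -0.24. There CCNL1 had -0.08 and CCNL2 -0.64, so the difference in their ratio is not a result separate from CCNL2. By contrast CCNT1 over CCNT2 was alike in the 4 libraries, at 1.25 and 1.32 in H2O2 and 1.24 and 1.28 in Control, a difference of 0.03. An exact two-sided permutation test over libraries gave p = 0.333 for the 3 pairs that did not overlap, which is the smallest that 2 against 2 libraries allow, and p = 0.667 for CCNT1 and CCNT2 (adjusted over 5 pairs, 0.417 and 0.667). No pair could therefore pass the threshold.

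CCNT1 took 70.4% of the cyclin T reads in the deeper and 71.4% in the shallower H2O2 library (exact 95% intervals 67.7% to 73.1% and 68.7% to 74.0%), against 70.2% and 70.8% in Control (67.8% to 72.5% and 68.1% to 73.4%). HEXIM1 took 86.0% and 86.1% of HEXIM reads in H2O2 (84.4% to 87.4% and 84.4% to 87.6%), against 84.6% and 80.7% in Control (82.8% to 86.2% and 78.7% to 82.6%). The intervals cover counting error only. Cyclin T shares overlapped throughout, and the HEXIM1 share of the shallower Control library lay apart from the other 3.

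**Figure D3:**
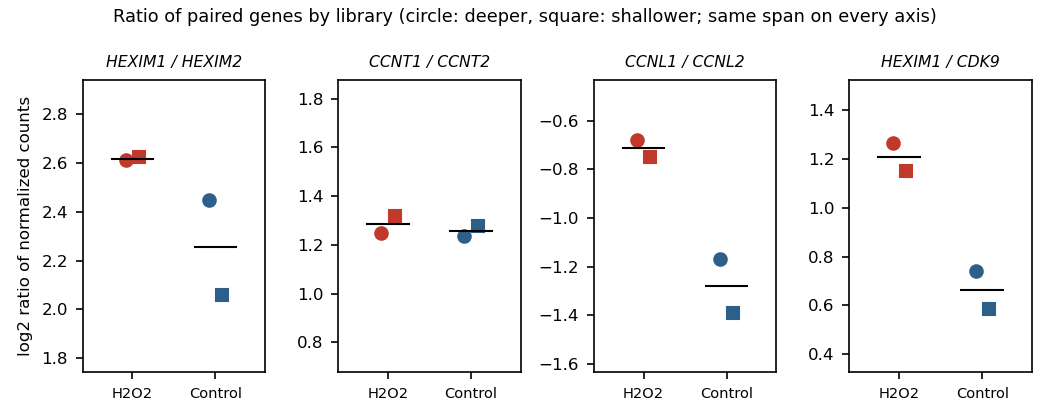
Log2 ratio of normalized counts of 4 gene pairs (vertical axes, all of the same span) in each H2O2 library (red) and Control library (blue), with lines for the mean of 2. CCNT1 over CCNT2 stays between 1.24 and 1.32, while HEXIM1 over CDK9 is 1.26 and 1.15 in H2O2 and 0.74 and 0.58 in Control.

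Other genes of the elongation machinery were read from 8 lists with 61 entries, of which 59 were in the table (BRDT and RN7SK were not). Of these 59, 1 rose and 3 fell in the authors' deposited table, against 2.58% of all genes higher and 4.62% lower, and 55 did not pass. The median over the 59 was 0.04 on the log2 scale in that table, beside 0.00028 for all genes. limma called the same gene higher and the same 3 lower.

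The 3 that fell were among 13 other transcription kinases and cyclins. CCNL2, the cyclin L2 gene, had 1601 and 1862 normalized counts in H2O2 against 2654 and 2724 in Control, and fell by 0.64 ± 0.11 on the log2 scale (SE, limma, adjusted p = 0.00511). CDK12, which with cyclin K phosphorylates the polymerase tail during elongation, had 514 and 550 in H2O2 against 895 and 737 in Control, and fell by 0.61 ± 0.12 (SE, limma, adjusted p = 0.0109). CDK10, a kinase activated by cyclin M, had 1038 and 995 in H2O2 against 1455 and 1631 in Control, and fell by 0.60 ± 0.11 (SE, limma, adjusted p = 0.00651). In all 3 genes both H2O2 libraries lay below both Control libraries, as they did in 25.6% of all genes. The 3 genes were called on these same libraries, so this adds no support to the calls. With a library left out the log2 fold changes in limma stayed negative. They ran from -0.75 to -0.53 for CCNL2, -0.75 to -0.47 for CDK12 and -0.68 to -0.52 for CDK10. The 2 ends for CDK12 came without the shallower and without the deeper Control library. The calls depended on single libraries and were not kept in every such fit.

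JMJD6 was the 1 gene that rose, out of 6 listed factors known to hold P-TEFb at 7SK or release it. It encodes a hydroxylase reported to act on 7SK-bound P-TEFb. Its normalized counts were 963 and 921 in H2O2 and 600 and 702 in Control. It rose by 0.54 ± 0.12 on the log2 scale (SE, limma, adjusted p = 0.0168). The groups did not overlap, as in 26.3% of all genes that lay higher. JMJD6 was called on these same libraries, so this adds no support to the call. With a library left out its log2 fold change in limma ran from 0.42 to 0.65, and the call was not kept in every such fit. The other 5 factors ran between -0.0017 and 0.18 in log2 fold change in the authors' deposited table.

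No gene passed among the 6 listed NELF and DSIF pausing factors (log2 fold changes of -0.04 to 0.20 in the authors' deposited table), the 6 of the PAF1 complex (-0.18 to 0.26), the 10 other elongation factors (-0.18 to 0.35) or the 7 tail phosphatases (-0.20 to 0.20). Unadjusted p-values under 0.05 numbered 0, 1, 2 and 0 in these lists in the authors' deposited table, and 0, 1, 2 and 0 in limma, where 19.6% and 20.2% of all genes had one. The 9 genes of the super elongation complex, which carries P-TEFb to genes, spread from -0.35 to 0.80 and none passed, with 4 at an unadjusted p under 0.05 in the authors' deposited table (2 positive and 2 negative) and 3 in limma, beside the same shares of all genes. Its upper end was ELL3, with 32 and 22 reads in H2O2 and 14 and 17 in Control, named here after its values were seen.

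**Figure D4:**
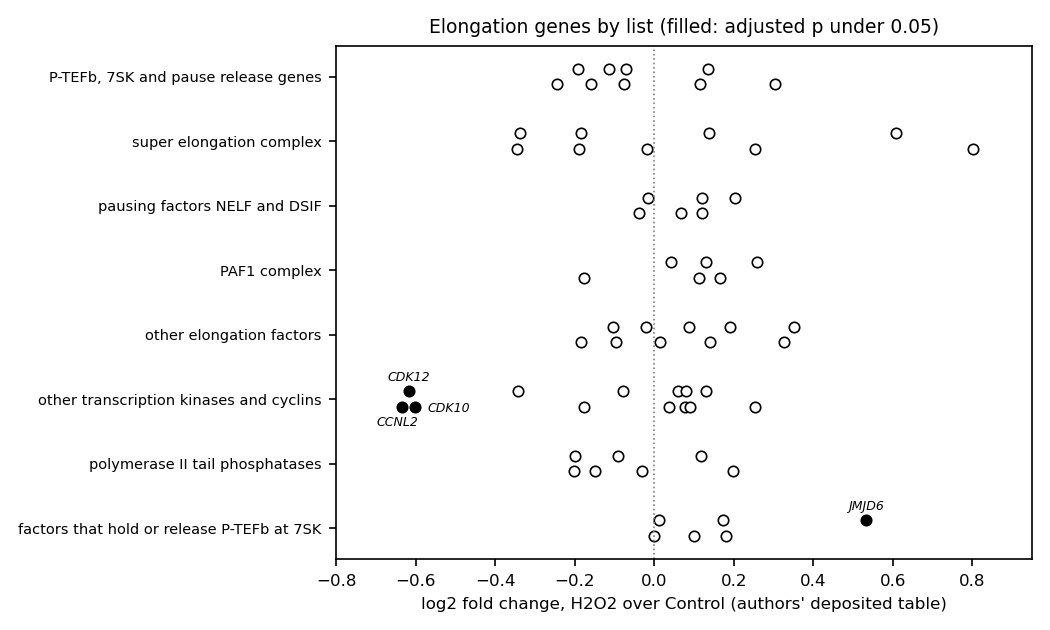
Log2 fold change in the authors' deposited table (horizontal axis, H2O2 over Control) of the 9 genes and of 7 of the lists; filled points have an adjusted p under 0.05 there. The 9 genes of the top row lie between -0.24 and 0.30 and none is filled, while CCNL2, CDK12 and CDK10 are filled on the left and JMJD6 on the right.

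The genes most like HEXIM1, BRD2 and CCNL1 over the 4 libraries were found by the distance between log2 values centred on each gene's mean, among genes of mean at least 50. For HEXIM1 they were CBX3, PBK, USP39, FOPNL and SMIM8, at distances of 0.014 to 0.031 and with log2 fold changes of 0.29 to 0.33 in the authors' deposited table. For BRD2 they were SH3KBP1, CCDC104, SEPT2, ALDH9A1 and GINS4, at 0.0055 to 0.018. CCNL1 was nearest to RP11-755F10.3, GLYR1, CC2D2A, PARM1 and POLR2D, at 0.016 to 0.025. With 4 libraries many genes share such a pattern, and these are descriptions.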

How the data were processed

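Libraries came from poly(A)-selected RNA (TruSeq RNA Sample Prep, per the labels' protocols). The submitters' processing notes list STAR, HTSeq, DESeq, CASAVA 1.8, Trim Galore and FastQC, with no roles, and build hg19. The sources used here give no gene annotation. The deposited table gives a signal per gene, which is the authors' mean of size-factor-normalized counts per group and over the 4 libraries, per the file headers. Its fold column is the ratio of the authors' group means and its log2 column the log2 of that ratio, per the file headers. Its p-value columns are the authors' DESeq p-value and the Benjamini-Hochberg adjustment, per the file headers. Exon lengths and overlaps are from GENCODE release 29 (GRCh38), matched by symbol, another build than the authors'. Genes of mean below 5.46 are not analysed here.

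Whole counts were solved from each group mean as a sum of 2 counts times 2 fixed steps, within 1e-09. All 16376 genes had 1 solution per group. limma 3.58.1 (R 4.3.3, mean-variance trend) was fitted to log2(normalized count + 1) over all genes, and fold changes on this scale understate low genes. This fit is an alternative to the authors' test, which stayed the main test at an adjusted p under 0.05. Adjusted p-values not credited to the authors' deposited table are limma's. The counting solution and limma were tested on simulated data. Pairs were tested by exact permutation with scipy 1.17.1.

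The 9 genes, the 8 lists, 5 pairs and 5 motifs were chosen with earlier results of these data known. Named genes are the 9, list genes past either threshold, partners in a pair that is reported, and the 5 genes nearest in pattern to HEXIM1, BRD2 and CCNL1. Of these, 1 pair and the genes of 1 list are not reported here.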

Additional observations from a re-analysis of the deposited data

How the results depend on the processing

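Among the 9 genes the counts of calls stayed at 0 higher and 0 lower under adjusted p limits of 0.01 and 0.1, filters on a mean of 10 and 50, limma, pseudocounts of 0.5 and 5, total-count scaling and quantile normalization. Fits with a library left out keep 1 library in a group, and the share of all genes they call is not given here. Their calls are therefore not read as results, for the 9 genes or for the 59 other elongation genes below. Without either Control library the calls among the 9 genes did not stay at 0. Among the 59 other elongation genes the count higher was 2 and the count lower 4 at an adjusted p under 0.1. With a library left out they were 0 to 10 and 0 to 8. There were 10 higher and 8 lower without the shallower Control library, 5 and 3 without the deeper Control library, 0 and 0 without the deeper H2O2 library, and 0 and 2 without the shallower H2O2 library. The cause was not tested, though fits without a Control library take their spread from the H2O2 libraries alone.

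With a library left out HEXIM2 ran from -0.24 to 0.11, the positive value without the shallower Control library, and CCNL1 from -0.17 to 0.017, the positive value without the deeper one. The pair differences with a library left out ran from 0.17 to 0.56 for HEXIM1 and HEXIM2, -0.0058 to 0.061 for CCNT1 and CCNT2, 0.45 to 0.67 for CCNL1 and CCNL2, and 0.47 to 0.62 for HEXIM1 and CDK9. The CCNT1 and CCNT2 value of -0.0058 came without the shallower H2O2 library. Levels per kilobase moved past the replicate SD in 14 of 18 cases with the longest transcript as length. No paired analysis was possible because the recovered libraries carry no replicate numbers, so it is not known which H2O2 library shares a number with which Control library. Depth limits genes such as ELL3, with 14 to 32 reads per library.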
